A study of Xenopus laevis with 32 samples.

Results

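Genes with 2 poly(A) sites in stage VI oocytes of the frog Xenopus laevis were described, by the distance between the sites, the reads at each, and the polysome share of the genes during meiotic maturation. A poly(A) site is the place where a nascent transcript is cleaved and given its poly(A) tail, and it was mapped by PAS-seq, which sequences RNA at its 3' ends. Members were chosen by their PAS reads. A gene outside the mitochondrial genome was taken when exactly 2 of its sites held at least 10 reads and the top site held 40% to under 90% of all reads of the gene. This gave 1553 genes, 17.0% of the 9114 nuclear genes with a site of at least 10 reads, out of 13340 nuclear genes with any listed site. The reads that chose the members are given below as a description, with no test.

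Full-grown stage VI oocytes, arrested in meiosis I and without progesterone, were the starting point. Later stages were oocytes 90 minutes into progesterone treatment (PG90), in meiosis I (MI), in interkinesis between both divisions, and in meiosis II (MII). Extracts of each stage were run on sucrose density gradients, and polyadenylated RNA was sequenced from 3 fractions (mRNP, monosome and polysome) in 2 libraries each, 30 libraries in all. The labels give no strain, age or number of frogs, so p-values measure only the spread between these samples, which may be technical. The 2 PAS-seq lanes came from stage VI alone, and the deposited site table gives their reads in 1 column, so use of the sites was not analysed here at later stages and has no replicate check.

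In vertebrates, a gene with several poly(A) sites makes messages that differ in the length of the 3' untranslated region, or, where the proximal site lies in an intron, in the coding part. The proximal site is transcribed first. In Xenopus oocytes, transcription is nearly silent during maturation, and stored messages are switched on or off by lengthening or shortening of their poly(A) tails, which is directed by elements in the 3' untranslated region. The site used while the oocyte grows can thus set which of these elements a stored message carries.

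The site table held 41918 nuclear sites with 646190 reads, of which members carried 108883. A member had between 20 and 393 reads, with a median of 57. Sites under 10 reads held a median of 12.5% and at most 46.9% of a member's reads, and 396 members had no such site. Of 17 oocyte marker genes, 16 were in the table of RNA levels, with stage VI levels that summed to 11260 in the columns with suffix x and 5821 in those with suffix y. By the same measure 2 of 11 genes listed as follicle cell markers (cyp17a1 and vim) summed to 75.8 and 33.6. From the blood list, 1 of 7 genes (slc4a1) had 44.7 and 10.9. Whether cyp17a1 and vim are absent from the oocyte itself was not tested, so their levels are no measure of follicle cells. Per listed gene, the medians were 46.7 in x and 7.55 in y for the 18 rows of oocyte markers. They were 37.9 and 16.8 for the 2 rows of the follicle cell list and 44.7 and 10.9 for the blood marker. The medians were thus of similar size in x, while in y the oocyte median was the lowest. The follicle cell gene cyp19a1 and the globin genes of the blood list had no row in the table of levels, but the site table lists sites for star of the follicle list and the globin hbg1 of the blood list; the part of such cells in the results was not tested.

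The share window left out 392 genes with 2 sites whose top site held under 40% and 33 whose top site held at least 90%. Just inside the window, the top sites of LOC108709329 and LOC108709409 held 40.0%. Just outside the lower edge, those of abt1.L and kdm1a.S held 39.7%. At the upper edge, birc5.1.L and rpl14.S, both with 89.9%, were inside, and pold2.L with 90.0% and hs3st1.L with 90.2% were outside.

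The 2 sites lay a median of 940 nt apart, measured between the deposited PAS bases. The quartiles were 263 and 3959 nt, and the 5th and 95th percentiles were 91 and 24120 nt. The closest pair was 51 nt apart, in the ribosomal protein gene rps19.S, and the widest 615670 nt, in LOC108699989. In 334 members the distance was over 5000 nt, and in 207 it was over 10000 nt. The clusters of reads that the authors drew around the sites did not overlap in any member.

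No site of another gene on the same strand lay between the 2 sites in any of the 1553 members, including the 207 with more than 10000 nt between them. A site of another gene on the opposite strand lay between them in 8 members, and 3 of these were among the 6 members with more than 100000 nt. How the authors assigned sites to genes is not given in the sources used here. Their rule could fix the same-strand result in advance, so this result does not show that both sites belong to the gene. Without a genome of the files' build, whether both sites lie in the same last exon could not be seen, so "tandem" is not used of them here. Priming of the assay on stretches of A inside a transcript, which can mimic a site, was not tested.

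**Figure D1:**
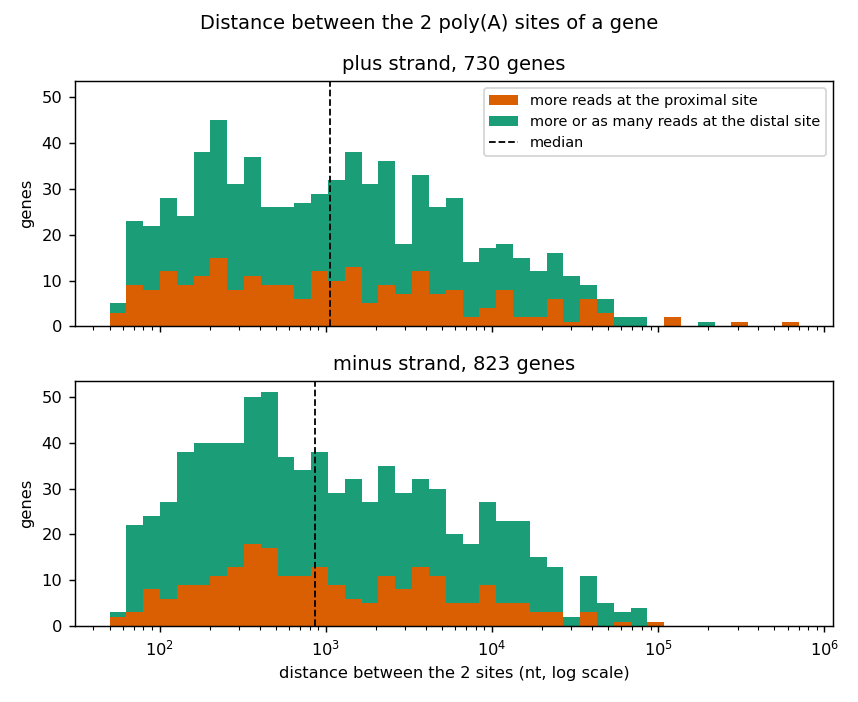
Histograms of the distance between the 2 sites (x axis, nt, log scale) on the plus strand (top) and the minus strand (bottom), as numbers of genes, split by the site with more reads; the dashed line is the median, 1060 nt on the plus and 857 nt on the minus strand. Genes with more reads at the proximal site, 465 in all, are found over the whole range of distances on both strands.

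The distal site held more reads in most members. The proximal site was ahead in 465 genes (29.9%), the distal site in 1067 (68.7%), and 21 had equal reads. Of the reads at the 2 sites, a median of 37.2% came from the proximal site, with quartiles of 23.5% and 54.6%. Pooled over members, 33430 reads were at proximal sites and 61026 at distal sites, so that 35.4% were proximal. The Wilson 95% interval of the proximal share, which covers counting error only because reads carry no molecular identifiers, lay wholly above 50% in 204 genes, wholly below it in 712, and on both sides of it in 637. Its median width was 25.2 percentage points, so at this depth the leading site was not resolved in those 637.

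The pattern was alike on both strands. The proximal site was ahead in 31.6% of the 730 members on the plus strand and in 28.4% of the 823 on the minus strand, and the median proximal shares were 37.2% and 37.1%. Proximal was read as the lower coordinate on the plus strand and the higher one on the minus strand, from the strand column of the table. The PAS base stood nearer the high end of the read cluster for 20381 of 20496 plus-strand sites and nearer the low end for 21319 of 21422 minus-strand sites. The location field names the opposite strand for every site.

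Site use was similar over the range of distances. The proximal site was ahead in 33.3% of the 99 members with up to 100 nt between the sites, in 31.3% of the 313 with 201 to 500 nt, in 30.8% of the 234 with 2001 to 5000 nt, and in 26.6% of the 207 over 10000 nt. Spearman's rho between distance and proximal share was -0.034 over 1553 genes, which share the same 2 lanes.

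Site use did vary with the number of reads. In the 409 members with 20 to 41 reads the proximal site was ahead in 39.1% and its median share was 47.6%. In the 377 with 86 to 393 reads these values were 20.4% and 19.0%, and the distal site was ahead in 79.6%. Spearman's rho between reads and proximal share was -0.43. The choice of members limits what can be read from this, since the minimum of 10 reads per site is 17.5% of the reads of a median member and keeps shares near the middle where reads are few. Among 768 genes with 3 sites of at least 10 reads, the most distal site was on top in 413 (53.8%), the middle one in 190 (24.7%) and the most proximal one in 143 (18.6%).

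**Figure D2:**
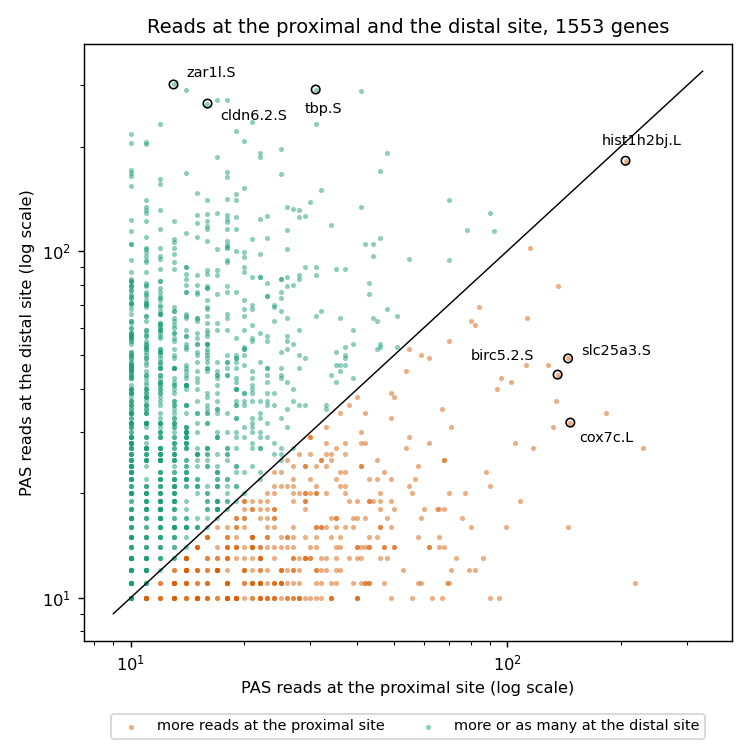
PAS reads at the proximal site (x axis) and the distal site (y axis) of each of the 1553 genes, both on log scales; points above the line have more distal reads. Both sites start at the minimum of 10 reads; zar1l.S, cldn6.2.S and tbp.S, with 13, 16 and 31 proximal reads, lie far on the distal side, and cox7c.L, slc25a3.S and birc5.2.S on the proximal side.

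The members with most reads show both kinds of use. The histone gene hist1h2bj.L had 206 proximal and 182 distal reads, 283 nt apart, a proximal share of 53.1% with an interval of 48.1% to 58.0%. The gene zar1l.S, related to zygote arrest 1, an oocyte protein that binds stored messages, had 13 proximal and 302 distal reads (4.13% proximal) 1530 nt apart. In tbp.S, which encodes the TATA-binding protein, 31 proximal and 292 distal reads (9.60% proximal) were 69 nt apart. In loc100158477.L, 14 and 292 reads stood 209 nt apart, 4.58% proximal. In 3 of these 4 genes the distal site led strongly, with 84.9% to 88.0% of all reads of the gene. Only the histone gene used both about equally.

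Members with a strong lead of the proximal site were found as well. In cox7c.L, a subunit of cytochrome c oxidase, 147 proximal and 32 distal reads stood 158 nt apart, 82.1% proximal. The mitochondrial phosphate carrier slc25a3.S had 145 and 49 reads, 74.7% proximal, and birc5.2.S, a survivin gene of the chromosomal passenger complex, had 136 and 44 reads, 75.6% proximal. In the membrane traffic gene golga7.S the proximal site held 70 reads and the distal one 11, 86.4% proximal.

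The widest pair, in LOC108699989, had 34 proximal and 10 distal reads. After it came arfip2.S, with 145 proximal and 16 distal reads 333332 nt apart, LOC108718434, with 28 and 36 reads 206695 nt apart, and chuk.S, with 22 and 13 reads 133770 nt apart. The closest after rps19.S (38 proximal and 36 distal reads) were MGC82845 (47 and 11 reads, 53 nt), LOC108700681 (15 and 12 reads, 54 nt) and dctn3.S (12 and 18 reads, 55 nt). In rps19.S, LOC108700681, dctn3.S, chuk.S and LOC108718434 the interval of the proximal share spans 50%.

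Gene classes were set by symbol, and 445 members fell into at least 1 of 17. Ribosomal protein genes stood highest by share: 32 of the 115 with a site of at least 10 reads were members, 27.8%, beside 17.0% over all genes. Their proximal site was ahead in 7 of 32, with a median proximal share of 19.4% and a median distance of 1485 nt, beside 37.2% and 940 nt over all members. These genes also had more reads, a median of 108 beside 57, and their near-identical copies make the counts of single genes uncertain. All members with 86 to 393 reads (median 114) came close to the class. Their proximal site was ahead in 20.4%, with a median proximal share of 19.0% and a median distance of 1189 nt. In rpl14.S 17 reads were proximal and 186 distal (8.37% proximal), and in rpl17.L 28 and 125 (18.3%).

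The genes for 3' end processing and deadenylation came next, with 17 of 64 as members, 26.6%. Here the proximal site was ahead in 5 of 17 and the median proximal share was 28.6%. The median distance of the class was 1024 nt, beside 940 nt over all members. The group holds cpsf6.S, nudt21.L and cstf2.L, subunits of the cleavage factors that choose poly(A) sites, and papola.L, a poly(A) polymerase. In cpsf6.S 55 proximal and 52 distal reads were 10708 nt apart, in nudt21.L 50 and 38 reads were 8617 nt apart, and in cstf2.L 26 and 57 reads were 11167 nt apart; these were picked after their values were seen. In patl1.L, a P-body protein, 15 proximal and 110 distal reads (12.0%) stood 360 nt apart, and in pum2.L, a Pumilio RNA-binding protein, 16 and 88 reads (15.4%) stood 236 nt apart.

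Other classes lay closer to the whole. Members made up 20.2% of nuclear-encoded mitochondrial protein genes (46 members, median distance 415 nt), 19.3% of ubiquitin and proteasome genes (56 members, 622 nt), 17.3% of cell cycle and meiosis genes (30 members, 1035 nt) and 16.0% of membrane traffic genes (44 members, 1996 nt). The lowest shares were 11.9% for translation factors (10 members, 225 nt), 12.5% for nuclear pore and transport genes (10 members) and 12.8% for chromatin and histone genes (19 members). Nuclear pore and transport genes were the only one of the 17 classes in which the proximal site led in most members, 6 of 10, among them nup50.S with 47 proximal and 14 distal reads and nxf1.S, an RNA export receptor, with 43 and 19.

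The maturation genes looked for were mos, ccnb1, ccnb2, wee2, aurka, fbxo43, cpeb1, plk1, bub1b, h1foo, btg4, cdk1 and cdc25, and 3 gene entries were members. How many of their copies had a site of at least 10 reads is not given here, so the 3 cannot be read as a share. Cyclin B2 (ccnb2.L), an activator of the kinase that drives meiosis, had 18 proximal and 163 distal reads 2641 nt apart, 9.94% proximal. That kinase, cdk1.L, had 51 and 53 reads 8382 nt apart, 49.0% proximal. The checkpoint kinase bub1b.L had 14 and 41 reads 26367 nt apart, 25.5% proximal.

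Xenopus laevis is allotetraploid and carries many genes as 2 homeologs on its L and S chromosomes. Among members, 769 (49.5%) had an L and 530 (34.1%) an S name, beside 47.7% and 33.8% of all genes with a site of at least 10 reads. Members were 17.7% of L genes and 17.2% of S genes. Of 1596 pairs with both copies detected, 85 had both copies as members. How reads that match both copies were treated is not given in the sources used here.

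The spacing of the sites was often similar in both copies. The distances of the L and S copies were within 1.1-fold of each other in 20 pairs, within 1.5-fold in 45 and within 2-fold in 53, while 15 pairs differed by more than 5-fold. In cdc5l, a splicing factor, the sites were 35542 nt apart in the L and 35525 nt in the S copy. In pum3 they were 26116 and 26330 nt apart, in cox7c 158 and 164 nt, and in uqcrfs1, the Rieske subunit of respiratory complex III, 264 and 258 nt. By contrast, cycs, which encodes cytochrome c, had 2569 nt in L and 89 nt in S, and kansl2 had 7135 and 121 nt. These 6 pairs were picked after their values were seen. Spearman's rho between the L and S distances was 0.59 over the 85 pairs.

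The leading site could differ between copies. The same site was ahead in both copies in 56 pairs, the distal one in 46 and the proximal one in 10, and opposite sites were ahead in 28. These counts make no allowance for counting error. In adrm1, for example, 21 proximal and 15 distal reads in L stood against 15 and 20 in S. Because the distal site led in 68.7% of members, many pairs would share a leading site without any link between copies. Where the distances differ widely, as in kansl2, the copies may not use matching sites. Spearman's rho of the proximal share between copies was 0.39, and the median difference was 14.0 percentage points. In the 34 pairs with distances within 1.25-fold, the same site was ahead in 22. Among the 5 pairs with most reads, cldn6.2, a claudin of cell junctions, had proximal shares of 7.88% in L and 5.67% in S. In slc20a1, a phosphate transporter, these were 17.0% and 9.26%, in rpl14 29.4% and 8.37%, in ckap5, a microtubule polymerase, 13.5% and 29.5%, and in stmn1, a tubulin-binding protein, 53.0% and 63.8%.

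**Figure D3:**
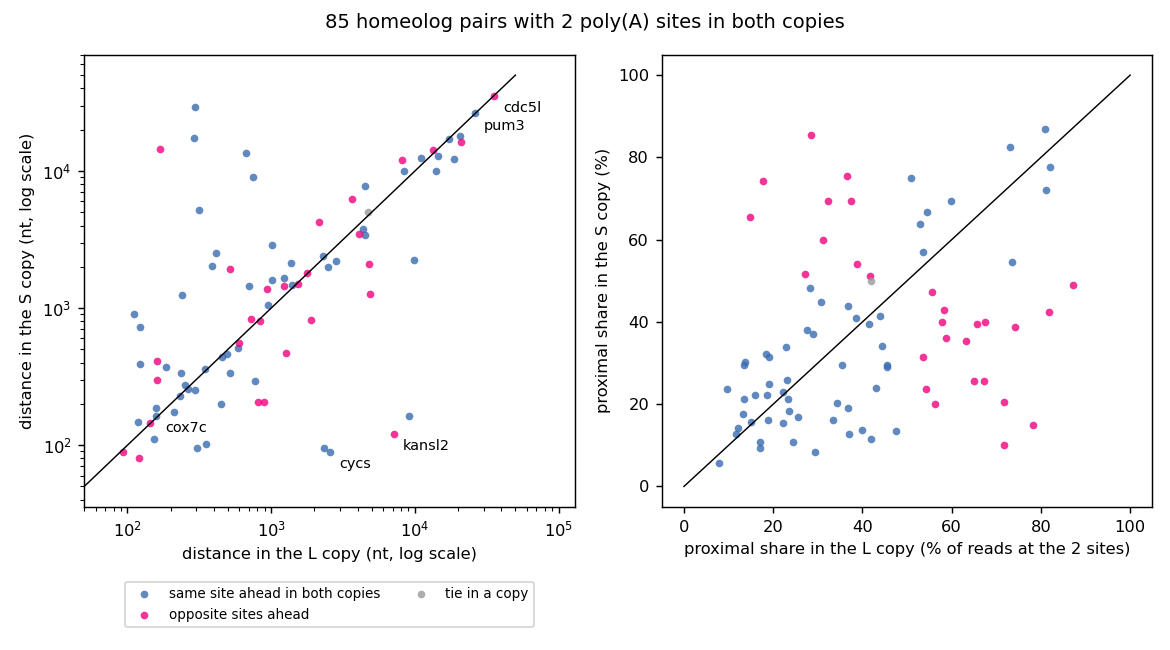
Left, distance between the 2 sites in the L copy (x axis) and the S copy (y axis) of 85 homeolog pairs, in nt on log scales; right, the proximal share of the reads at the 2 sites in each copy, in percent. Many pairs lie on the line of equal distance, including cdc5l and pum3. In 28 pairs opposite sites were ahead by read count, with no allowance for counting error.

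Polysomes are messages loaded with several ribosomes, and the deposited table gives a polysome share per gene and stage as a fraction, in 2 columns per stage with the suffixes x and y, taken here as the stage's 2 replicates. What the share is a part of, and the depth behind it, are not stated. A share was listed for 501 members, 32.3%; 34 members whose short name is used by more than 1 gene were left out of this match. At stage VI the members' median share was 0.348 in x and 0.320 in y, and by PG90 it was 0.316 in x and 0.323 in y. MI oocytes had medians of 0.278 and 0.301, interkinesis oocytes 0.276 and 0.290, and MII oocytes 0.240 and 0.268. The medians were lower at each later stage in x, and in y from MI on.

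The members' medians followed those of all genes. On the scale of log2(share / (1 - share)), called log2 odds, members had a median change against stage VI of -0.12 (PG90), -0.30 (MI), -0.33 (interkinesis) and -0.62 (MII), beside -0.12, -0.29, -0.33 and -0.57 over all 6497 genes of the table. At MII it was -0.58 in the 1059 genes with a single site and -0.47 in the 957 other genes with several sites. Taken by column, the members' median change at MII was -0.75 in x and -0.44 in y, beside -0.69 and -0.40 over all genes.

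**Figure D4:**
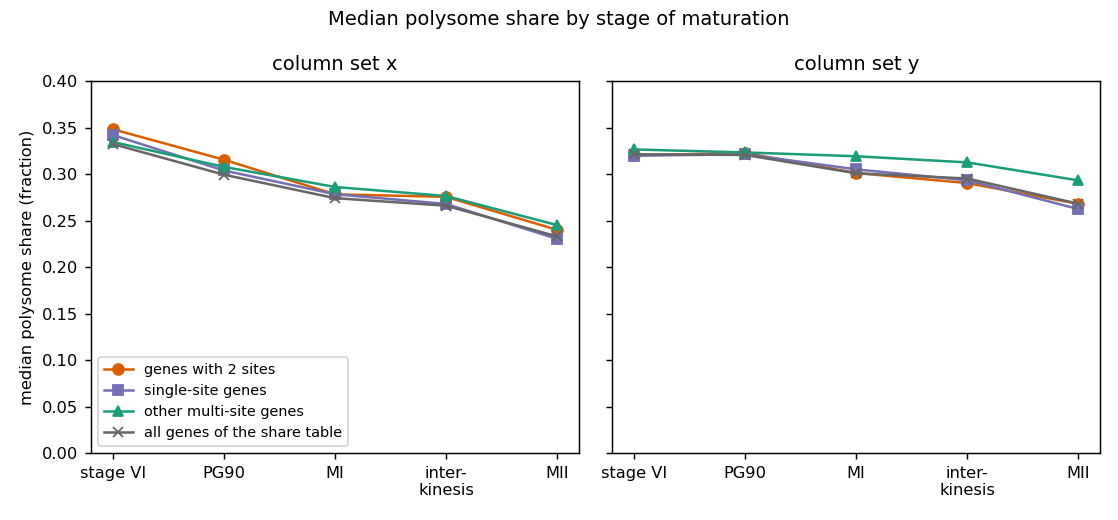
Median polysome share (y axis, fraction) at the 5 stages (x axis) in column set x (left) and y (right) for genes with 2 sites, single-site genes, other multi-site genes and all genes of the table. The members' medians start near those of the other groups, and in all groups the medians are lower at MII than at stage VI. In x the members' median was 0.240 at MII against 0.348 at stage VI, beside 0.233 and 0.332 over all genes.

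At MII, limma called 20 of the 501 members at an adjusted p under 0.05 (Benjamini-Hochberg over 6497 genes). Of these, 2 were higher (0.399%) and 18 lower (3.59%) than at stage VI, beside 0.554% and 3.82% of all genes, so the members' counts were near the background. In all 20, both MII columns were beyond both stage VI columns. Over all members with a share, both MII columns lay above both stage VI columns in 48 (9.58%, beside 9.37% of all genes) and below them in 277 (55.3%, beside 53.5%). At PG90, MI and interkinesis, 0 members and 0.0% of all genes passed in either direction. At an unadjusted p under 0.05 limma gave 3 members at PG90 (0.599%, beside 0.908% of all genes), 52 at MI (10.4%, beside 11.7%), 81 at interkinesis (16.2%, beside 16.0%) and 169 at MII (33.7%, beside 32.7%). These calls rest on few columns. With 1 stage VI or MII column left out, fewer members or none were called at MII, and the same held over all genes. The members' median change then ran from -0.70 to -0.49, beside -0.68 to -0.42 over all genes. With the column set as a block, limma called 121 members, 14 higher and 107 lower, beside 25.5% of all genes. With each column centred on its median it called 8, 5 higher and 3 lower, beside 1.955% of all genes. The split of directions thus depended on the scaling.

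The largest rise was in ppp2r2b.L (chromosome 3L, minus strand, sites at 33302322 and 33301764 on the files' unstated build), a regulatory subunit of protein phosphatase 2A, the phosphatase family that counters mitotic kinases. Its share was 0.276 in x and 0.251 in y at stage VI and stood at 0.252 and 0.255 in PG90 oocytes. It was 0.530 and 0.423 in MI oocytes, 0.733 and 0.482 in interkinesis, and 0.751 and 0.737 in MII oocytes. Both columns were higher than at stage VI from MI on. The change at MII was 3.02 ± 0.55 log2 odds (SE, adjusted p = 0.0388, limma). Its sites were 558 nt apart, with 22 proximal and 12 distal reads, 64.7% proximal.

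The other called rise was spice1.L, a protein of spindles and centrioles (2L, minus strand, 2942833 and 2926752). Its share was 0.445 and 0.641 at MII, against 0.213 and 0.284 at stage VI, a change of 1.87 ± 0.47 (adjusted p = 0.0487, limma). The call was lost in a fit of the stage VI and MII columns alone (adjusted p = 0.0686, limma). With 1 column left out, the change ran from 1.29 to 2.45. Its sites lay 16081 nt apart with 46 proximal and 54 distal reads. The next largest rises did not pass in the main fit. In zfand2a.L the share was 0.496 and 0.628 at MII, against 0.210 and 0.240 at stage VI (adjusted p = 0.0531, limma), and in prr13-like.L 0.639 and 0.793, against 0.418 and 0.328 (adjusted p = 0.0524). Cyclin B2 (ccnb2.L) had 0.429 and 0.719 at MII, against 0.346 and 0.276 at stage VI (adjusted p = 0.0840). In all 3 the MII columns were above both stage VI columns. Of 4 alternative fits (quantile normalization, centring, column-set block, both stages alone), zfand2a.L passed in 3, prr13-like.L in 2 and ccnb2.L in 1.

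Among the 18 that fell, the largest changes were in ncaph2.L, a condensin II subunit, and ddx4.L, the germline RNA helicase Vasa. The share of ncaph2.L was 0.0688 and 0.152 at MII, against 0.421 and 0.291 at stage VI, a change of -2.25 ± 0.46 (adjusted p = 0.0388, limma). Its call was lost with quantile normalization (adjusted p = 0.130, limma) and after centring (0.0705). The share of ddx4.L was 0.220 and 0.198 at MII, against 0.572 and 0.510 at stage VI, a change of -2.16 ± 0.36 (adjusted p = 0.0388). The sites of ncaph2.L were 20410 nt apart with 10 proximal and 24 distal reads, and those of ddx4.L (1L, minus strand, 195241012 and 195237648) were 3364 nt apart with 112 and 47. In gip.S the share was 0.110 and 0.203 at MII, against 0.491 and 0.385 at stage VI (-2.12 ± 0.40, adjusted p = 0.0388).

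Of 10 ribosomal protein members with a share, limma called 4 lower (rpl14.L, rpl17.S, rpl36.L and rpl19.L) and 0 higher, beside 3.82% of all genes lower and 0.554% higher, with no test of the list. This count depended on the scaling. After centring only rpl17.S of these 4 was still called, and with quantile normalization the only member called lower was ddx4.L. The median change of the 10 was -1.42 beside -0.62 over members. In rpl14.L the share was 0.152 and 0.208 at MII, against 0.442 and 0.499 at stage VI (-2.03 ± 0.50, adjusted p = 0.0470, limma). Its call was lost with quantile normalization (adjusted p = 0.0722), after centring (0.106) and without any 1 of the 4 columns of these stages (0.0695 to 0.251). In rpl17.S it was 0.143 and 0.142 at MII, against 0.348 and 0.399 at stage VI (-1.84 ± 0.31, adjusted p = 0.0388). The homeologs rpl14.S and rpl17.L, with changes of -1.89 and -1.34, missed the threshold at adjusted p of 0.0549 and 0.0545 (limma). The ribosome assembly factor nsa2.L had 0.153 and 0.163 at MII, against 0.361 and 0.447 at stage VI (-1.85 ± 0.34, adjusted p = 0.0388). The ribosomal list was chosen with earlier results of these data known, so its counts are a description.

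The other falls spread over several roles. The proteasome's ubiquitin receptor adrm1.L changed by -1.73 ± 0.44 and its ATPase subunit psmc1.L by -1.54 ± 0.39. Endophilin B1 (sh3glb1.S) changed by -1.69 ± 0.32, sdr16c5.L, a dehydrogenase of retinol, by -1.75 ± 0.40 and ubtd2.S by -1.68 ± 0.40. The calls of adrm1.L, sh3glb1.S, sdr16c5.L, ubtd2.S and nsa2.L were lost both with quantile normalization and after centring. Those of gip.S and rpl17.S were lost with quantile normalization but kept after centring. The ribosomal proteins rpl36.L and rpl19.L changed by -1.56 and -1.49. The remaining called falls were fam207a.L, zc3h7b.L, tmcc3.S, the actin bundler pls3.L and the mitochondrial initiation factor mtif3.L, with changes between -1.64 and -1.36. After centring the only members called lower were ddx4.L, gip.S and rpl17.S, and with quantile normalization only ddx4.L. Falls other than ddx4.L, gip.S and rpl17.S thus lost their call under both scalings.

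**Figure D5:**
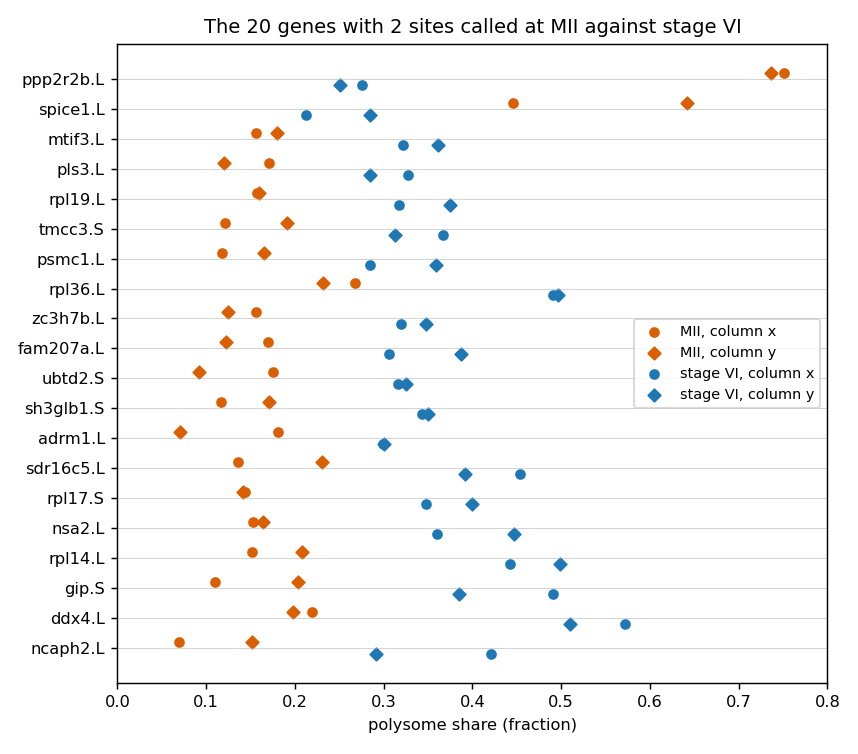
Polysome share (x axis, fraction) at MII and at stage VI in columns x and y for the 20 genes with 2 sites called by limma at MII, ordered by their change. The top 2 genes lie higher at MII and the other 18 lower, with no overlap between the stages in any of them.

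Several members with many reads did not pass. The share of cdk1.L was 0.128 and 0.371 at MII, against 0.419 and 0.383 at stage VI (adjusted p = 0.187, limma), so the MII columns differed widely. Both copies of cldn6.2 had higher values at MII, 0.745 and 0.531 in L against 0.429 and 0.317 at stage VI, and 0.618 and 0.599 in S against 0.419 and 0.312. Neither passed, with adjusted p of 0.154 for L and 0.107 for S (limma). In the stathmin copy stmn1.L the values were 0.295 and 0.379 at MII, against 0.527 and 0.619 at stage VI (adjusted p = 0.107, limma).

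The polysome share was similar whichever site was ahead. At stage VI the median share was 0.336 in the 127 members with the proximal site ahead and 0.341 in the 368 with the distal site ahead. Their median changes at MII were -0.63 and -0.62 log2 odds. Across the 501 members, Spearman's rho of the proximal share was 0.018 with the stage VI polysome share and -0.081 with the change at MII. For the distance between the sites these values were 0.027 and 0.0085. These correlations are across genes of the same columns and describe them only. The share is given per gene and not per site, so whether messages from either site differ in it could not be seen.

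RNA levels are given by the authors in an unstated unit, without a fraction in their column names, and are read here as scores in column sets x and y kept apart. In bulk RNA, fewer cells of a type and less RNA per cell cannot be told apart. The fraction libraries were made from polyadenylated RNA. If the levels come from them, a change in poly(A) tail length and a change in RNA amount cannot be told apart either. A level was listed for 1395 members. Their median at stage VI was 67.8 in x and 13.7 in y, above the 42.2 and 8.13 of single-site genes and below the 167 and 41.0 of other multi-site genes. The number of sites that reach 10 reads depends on the reads of a gene, which had medians of 57, 28 and 102 in these groups.

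At MII the authors' levels were at least 2-fold lower than at stage VI in both column sets for 57 members (4.09%, beside 3.37% of all 11765 genes) and at least 2-fold higher for 5 (0.358%, beside 0.977%). Histone genes were among the lowest ratios. In hist2h2ab.L the level at MII was 97.2 in x and 11.6 in y, against 1044 and 351 at stage VI. In hist1h2bj.L it was 2527 and 401 at MII, against 19619 and 3705 at stage VI. The levels of tbp.S were 36.7 and 20.6 at MII, against 149 and 51.3, and those of birc5.2.S 167 and 28.8, against 492 and 105. The germline and early embryo factor pou5f3.2.L had 26.9 and 5.09 at MII, against 152 and 40.0. The 5 that were higher were pum3.L, xtm4, per3.S, dopey2.S and LOC108704169. In pum3.L the level was 603 and 155 at MII, against 190 and 53.1 at stage VI, about alike in both sets, whereas in xtm4 it was 1610 and 349, against 248 and 7.06. Genes in this paragraph were chosen after their values were seen.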

How the data were processed

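Stage VI oocytes gave 2 PAS-seq lanes, and oocytes of 5 stages gave 30 fraction libraries. The site table holds whole-number counts of PAS reads deposited by the authors; the share table holds fractions and the level table scores of unstated unit, per the file headers. Bowtie, TopHat2, Cufflinks and Bowtie2 are named in the submitters' processing notes; build, versions and filters are not given in the sources used here. Per-sample depth is unknown for shares and levels. No sequences are shown because no genome of the files' build was at hand.

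Members and gene lists were chosen with earlier results of these data known. Some symbols whose role did not match their class were removed after seeing names. The germline helicase ddx4.L stayed among the splicing factors and hnRNPs, as the only called gene of that class. Log2 odds were fitted with limma-trend 3.58.1 (R 4.3.3) on all 10 columns with stage as the only term, Benjamini-Hochberg within each contrast. The fit was also run on simulated data, drawn without a column-set effect or a shift common to all genes. That run cannot show how the calls behave under either. No share column carries a replicate number; deviations of the x columns from stage means correlated between stages by 0.17 to 0.45, so the block is given too. Genes were named by rule: up to 10 called rises and falls at MII, rises filled to 5, most reads, longest and shortest distance, class members with most reads, top homeolog pairs, window edges and maturation genes. Names matched without regard to case where used by 1 gene entry.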

Additional observations from a re-analysis of the deposited data

How the results depend on the processing

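A minimum of 5 reads per site gave 2494 members and a minimum of 20 gave 572, with the median distance and the share of genes with the proximal site ahead near the values reported. With the top site under 80%, the proximal site was ahead in 32.3%. With the top share taken of the reads at the 2 sites, it was ahead in 32.6% and the median distance was 1105 nt. Merging sites within 50 nt moved none of these. Median-centring gave members' median changes of -0.0071 (PG90), -0.034 (MI), -0.018 (interkinesis) and -0.080 (MII). Quantile normalization gave -0.052 (MI), -0.050 (interkinesis) and -0.10 (MII). These scalings align the columns over all genes by construction, which does not fix the median of the members. At MII the median change over all genes was -0.025 after centring and -0.037 with quantile normalization. Called members at MII numbered 4 with quantile normalization, 8 after centring, 32 in a fit of the columns of both stages alone, 121 with the column-set block in place of a replicate block, and 0 to 11 when a column was left out; the cause was not tested. Of the 20 called, 3, 5, 18 and 20 were shared with these fits, and ppp2r2b.L and ddx4.L passed in all 4. With 1 column left out, ppp2r2b.L passed in 2 of 4 fits and ddx4.L in 1. No paired analysis was possible because the share columns carry no replicate number that could be matched to the libraries; the column-set block pairs columns by suffix only. Of 87 recomputed summary values, 67 stayed within their limits, which says little for many of them. Some are call counts that stayed at 0 before MII, where no gene passed in the main fit. Others are median changes with the column-set block or in the fit of both stages alone, which equal the main values by construction. No gene recomputed at MII changed direction, but these genes were picked for their call or a large rise. Each stage has 2 columns and the fit 5 residual degrees of freedom; site use has no replicate and rests on a median of 57 reads.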
